A study of Homo sapiens with 8 samples.

Results

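A group of 10 genes that set epithelial or mesenchymal character was followed by bulk RNA-seq in cells that the labels call A549, a human cell line of lung adenocarcinoma origin. They were the 10 rows, of 58735 in the count table, whose gene symbol is ZEB1, ZEB2, SNAI1, SNAI2, TWIST1, TWIST2, ESRP1, ESRP2, GRHL2 or OVOL1. All 10 were found once. The 6 zinc finger and helix-loop-helix factors of the ZEB, SNAI and TWIST families drive epithelial-mesenchymal transition (EMT), in which epithelial cells loosen their junctions and take on a motile, mesenchymal state. ZEB and SNAI proteins bind E-box motifs and repress epithelial genes such as CDH1, which encodes E-cadherin. The other 4 genes hold the epithelial state. ESRP1 and ESRP2 encode epithelial splicing regulators, GRHL2 encodes a grainyhead-like activator of epithelial genes, and OVOL1 encodes a zinc finger repressor of EMT factors. Both arms restrain each other in epithelial cells and carcinomas, and the miR-200 microRNAs, which repress ZEB1 and ZEB2, are part of that circuit.

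The EV group comprised 4 libraries of cells transduced with an empty lentivirus, and the KRT19 group comprised 4 libraries of cells transduced with a lentivirus that overexpresses KRT19, which encodes a keratin of epithelial intermediate filaments. Both lines carried a lentiviral insertion and had been selected with puromycin, and no untransduced cells were analysed here. Each group was 1 stable line as far as the sources say, and nothing states that its 4 libraries came from separate cultures. The p-values below therefore measure the spread between these libraries, which may be technical. The comparison asked whether forced KRT19 expression went with altered levels of these regulators.

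Libraries held between 14073065 and 17054364 counts. The floor of a library was set at 3 counts, or 0.176 to 0.213 CPM (counts scaled to a common library size), and covers counting error only. KRT19 (ENSG00000171345, minus strand of chromosome 17, 41523617 to 41528308, GRCh38) had 1 to 5 counts in EV and 4353 to 5147 in KRT19 libraries (log2 fold change 10.75 ± 0.12, SE; adjusted p = 5.19e-20, edgeR), which matches the group labels of all 8 libraries. The labelled cell line was less well matched. Of the genes examined that A549 cells are known to express, NQO1 was abundant (6009 to 7518 counts), AKR1C1 had 10 to 22 counts and AKR1C2 had 14 to 47. AKR1B10 had 1 to 14 counts, AKR1C3 0 to 2, ALDH1A1 0 to 3 and CXCL8 0 to 1. CDKN2A (1328 to 1824 counts) and MTAP (653 to 870), which are homozygously deleted in A549, were expressed in all 8 libraries. KRT8 and KRT18, keratins of simple epithelia, had 2988 to 3857 and 4271 to 5746 counts, whereas CDH1 had at most 1 and EPCAM at most 3. These markers go against the label, which is kept below only as the submitters' name. The label on extraction also names retina as the source, and of 6 retinal genes only OPN1SW (22 to 30 counts) exceeded 6 counts. Fibroblast and leukocyte markers were low in both groups, with COL1A1 at 21 to 54 counts, DCN at 0 to 7 and PTPRC at 0 to 1. The 4 endothelial markers summed to 2.77 to 3.13 CPM in EV and 2.17 to 2.48 in KRT19 libraries, and their part in the results below was not tested. KRT19 replicate 3 stood apart from its group. Its 3 pairs with the other KRT19 libraries had a chi-square per degree of freedom of 7.14 to 12.4 over genes, against 2.67 to 3.54 for the remaining KRT19 pairs and 2.97 to 6.02 for EV pairs.

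In both groups TWIST1, TWIST2, ZEB1, ZEB2 and SNAI1 lay well above the epithelial regulators, whereas SNAI2 lay next to ESRP2. To compare genes with each other, counts were divided by exon length and expressed as TPM, which sums to the same total in each library. TWIST2 was highest, at a median of 23.0 TPM over 8 libraries (19.1 to 23.4). TWIST1 followed at 16.8 TPM (14.1 to 21.3), ZEB1 at 14.3 (12.4 to 17.9), ZEB2 at 5.49 (5.03 to 6.46), SNAI1 at 2.11 (1.59 to 3.81) and SNAI2 at 0.497 (0.126 to 0.648). ESRP2 had a median of 0.233 TPM (0.0378 to 0.390), and the medians of ESRP1, GRHL2 and OVOL1 were 0. TWIST2 and TWIST1 overlapped in range, as did TWIST1 and ZEB1, SNAI2 and ESRP2, and ESRP2 and ESRP1. ZEB1, ZEB2 and SNAI1 each lay above the next in that order, with no overlap over 8 libraries. Among protein-coding genes, TWIST2 lay at the 71.3 percentile of median TPM, ZEB1 at 63.5 and SNAI2 at 37.4. The order of the medians was the same when the exons of basic protein-coding transcripts gave the length. In these bulk samples, fewer cells with a transcript and less of it per cell cannot be told apart.

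**Figure D1:**
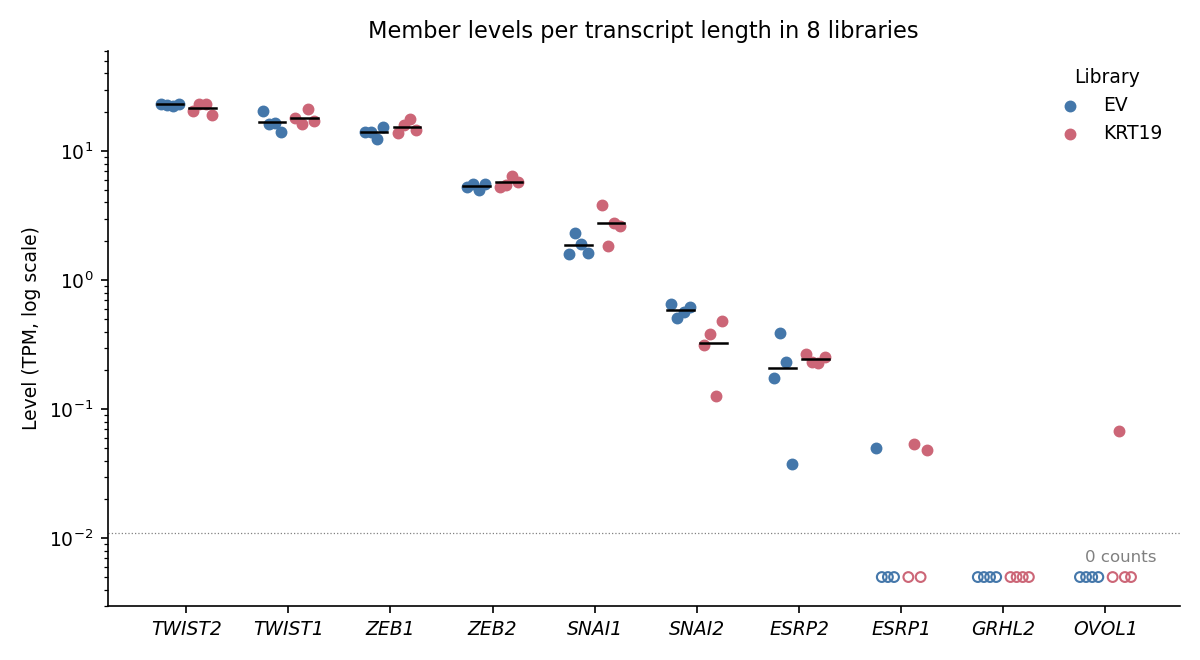
Levels of the 10 genes in TPM (vertical axis, log scale), with 1 point per library, EV in blue and KRT19 in red, and bars at group means where no library was at 0. Open points below the dotted line are libraries with 0 counts. TWIST2, TWIST1, ZEB1 and ZEB2 sit above 5 TPM in every library, and the 4 epithelial regulators sit below 0.4 TPM in both groups.

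The ZEB genes were both expressed and neither passed the adjusted threshold. ZEB1 (ENSG00000148516, plus strand of chromosome 10, 31318495 to 31529814) encodes a zinc finger homeodomain repressor of E-cadherin. It was at 33.1, 34.0, 30.2 and 37.0 CPM in EV replicates 1 to 4 and at 33.7, 37.5, 42.5 and 35.5 CPM in KRT19 replicates 1 to 4. The groups overlapped, and KRT19 replicate 3 was the highest of all. ZEB1 had a log2 fold change of 0.15 ± 0.079 (SE), with a 95% interval from -0.016 to 0.32 (edgeR, adjusted p = 0.906). The log2 fold change was 0.080 without KRT19 replicate 3, 0.20 without EV replicate 4 and 0.20 without KRT19 replicate 1, and the unadjusted edgeR p was under 0.05 in the last 2 of these fits. ZEB2 (ENSG00000169554, minus strand of chromosome 2, 144364364 to 144524583) encodes the paralogous repressor. It was at 36.3, 38.5, 35.7 and 39.1 CPM in EV and at 37.1, 37.5, 44.5 and 41.1 CPM in KRT19 libraries, so the groups again overlapped and KRT19 replicate 3 was again highest. The log2 fold change of ZEB2 was 0.10 ± 0.068, with an interval from -0.045 to 0.24 (edgeR, adjusted p = 0.906), and 0.044 without that library. Per length, ZEB1 exceeded ZEB2 in all 8 libraries, by 2.46 to 2.90 times. With the exons of basic protein-coding transcripts as length, the ratio was 1.76 to 2.08. On the log2 scale the ratio averaged 1.38 ± 0.067 (SD, n = 4) in EV and 1.43 ± 0.092 (SD, n = 4) in KRT19 libraries, and the groups overlapped.

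ZEB1 and ZEB2 are the classical targets of the miR-200 family, so the mature sequences are shown from RefSeq (GRCh38.p14), 5′ to 3′, with the seed (bases 2 to 8) in capitals. The first 3 share 1 seed and the last 2 share another, and the seeds differ at 1 base.
miR-200b-3p, chr1:1167160-1167181, plus strand: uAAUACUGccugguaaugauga
miR-200c-3p, chr12:6963742-6963764, plus strand: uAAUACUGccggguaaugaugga
miR-429, chr1:1169055-1169076, plus strand: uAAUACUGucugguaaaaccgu
miR-200a-3p, chr1:1167916-1167937, plus strand: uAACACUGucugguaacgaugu
miR-141-3p, chr12:6964155-6964176, plus strand: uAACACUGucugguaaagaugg

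The 3′ UTRs of both ZEB transcripts were searched on the transcript strand for the seed complements CAGTATT and CAGTGTT, which cannot overlap at the same bases. The longest 3′ UTR of ZEB1, 2549 bases, held 6 of the former and 3 of the latter. That of ZEB2, 5370 bases, held 5 and 4. Of 2353 UTRs within 20% of the length for ZEB1, 0.0425% held at least 9 matches, and 0.181% of 1104 did so for ZEB2. Over all 19113 genes with a 3′ UTR, 28.2% held at least 1. The 3′ UTRs of SNAI1, TWIST1, TWIST2, OVOL1 and ESRP2 held 0 matches. Of UTRs within 20% of their lengths, 16.2%, 13.4%, 14.2%, 35.3% and 22.1%, in that order, held at least 1. Holding 0 is thus the usual state of UTRs of these lengths. The UTRs of SNAI2, ESRP1 and GRHL2 were not searched. One site of each kind is shown per gene (GENCODE 29, GRCh38), with the match in capitals.
ZEB1, CAGTATT, chr10:31527619-31527643, plus strand: ttgttttatcttatCAGTATTatca
ZEB1, CAGTGTT, chr10:31528032-31528056, plus strand: aaaatcatcagaatCAGTGTTtgtg
ZEB2, CAGTATT, chr2:144389049-144389073, minus strand: gcactaccatacatCAGTATTttta
ZEB2, CAGTGTT, chr2:144389233-144389257, minus strand: gcaaaaattttgtaCAGTGTTaagg

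**Figure D2:**
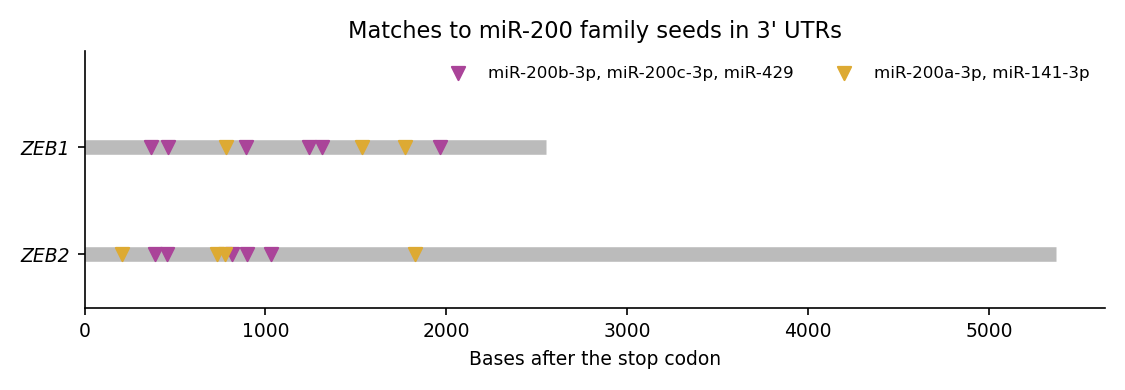
Positions of the seed matches in the longest 3′ UTR of ZEB1 and of ZEB2 (horizontal axis, bases after the stop codon), with triangles coloured by seed group and grey bars drawn to the length of the UTR. Each gene has 9 matches, and all but 1 of those in ZEB2 begin within the first 1029 bases of its UTR.

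Transcripts from the loci of these microRNAs were not detected. The host transcript MIR200CHG and the rows for MIR200C, MIR141, MIR200A, MIR200B, MIR429, MIR205HG and MIR205 had 0 counts in all 8 libraries. A count of 0 allows up to 1.80 to 2.23 TPM of MIR200CHG per library. Mature microRNAs were not measured by this assay, and their seed matches are a description of sequence only.

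The TWIST genes were the most abundant members per length. TWIST1 (ENSG00000122691, minus strand of chromosome 7, 19020991 to 19117672) encodes a basic helix-loop-helix factor of mesoderm and EMT. It was at 11.3, 9.22, 9.55 and 8.0 CPM in EV and at 10.4, 9.03, 11.9 and 9.79 CPM in KRT19 libraries. The groups overlapped, with KRT19 replicate 3 highest and EV replicate 4 lowest. The log2 fold change of TWIST1 was 0.12 ± 0.12 (SE), with an interval from -0.13 to 0.37 (edgeR, adjusted p = 0.930), and leaving out 1 library gave 0.039 (KRT19 replicate 3), 0.042 (EV replicate 4) or 0.21 (EV replicate 1). TWIST2 (ENSG00000233608, plus strand of chromosome 2, 238848032 to 238910543) encodes its close paralog. EV libraries lay within a narrow band for TWIST2, at 11.9, 11.9, 12 and 12.3 CPM, whereas KRT19 libraries were at 10.7, 11.9, 12.1 and 10.1 CPM. The first and the last KRT19 library were thus below every EV library and the other 2 were within their range. TWIST2 had a log2 fold change of -0.10 ± 0.090, with an interval from -0.29 to 0.090 (edgeR, adjusted p = 0.923). It was -0.055 without KRT19 replicate 4. With upper-quartile normalization the TWIST2 groups did not overlap, with KRT19 lower. TWIST1 was below TWIST2 per length in all 8 libraries, at 0.601 to 0.910 times its level. This order was not stable to the length used, since with the exons of basic protein-coding transcripts the ratio ranged from 0.734 to 1.11. The log2 ratio averaged -0.46 ± 0.22 (SD, n = 4) in EV and -0.24 ± 0.18 (SD, n = 4) in KRT19 libraries, and the groups overlapped.

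SNAI1 and SNAI2 were scarce, and their differences rest on few reads. SNAI1 (ENSG00000124216, plus strand of chromosome 20, 49982999 to 49988886) encodes Snail, a zinc finger repressor of E-cadherin. It had 11, 18, 15 and 13 counts in EV and 30, 12, 22 and 19 in KRT19 libraries, or 0.732, 1.08, 0.913 and 0.765 CPM against 1.81, 0.853, 1.29 and 1.26 CPM. Of the KRT19 libraries, 3 were above every EV library, and replicate 2 lay within the EV range. The log2 fold change of SNAI1 was 0.58 ± 0.28 (SE), the largest of the 5 tested members, with an interval from -0.0045 to 1.17 (edgeR, adjusted p = 0.906). It was 0.38 without KRT19 replicate 1, 0.70 without EV replicate 2 and 0.73 without KRT19 replicate 2, and the unadjusted edgeR p was under 0.05 in the last 2 of these fits. The groups did not overlap without KRT19 replicate 2.

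SNAI2 (ENSG00000019549, minus strand of chromosome 8, 48917604 to 48921740) encodes Slug, which shares the E-box repressor function. It had 9, 8, 9 and 10 counts in EV and 5, 5, 2 and 7 in KRT19 libraries, or 0.599, 0.482, 0.548 and 0.588 CPM against 0.302, 0.356, 0.117 and 0.463 CPM. SNAI2 was lower in every KRT19 library than in any EV library, and KRT19 replicate 3 was at the floor. It was the 1 member of 10 whose groups did not overlap. Of 30250 genes with at least 1 count, 2.45% showed such a separation in either direction, and over the 14621 genes that passed the filter on low counts the share was 3.44%. SNAI2 did not pass the filter on low counts and so had no test in the main fit. In a fit that kept all genes with at least 1 count, its log2 fold change was -0.85 ± 0.49 (SE), with an interval from -1.80 to 0.11 (edgeR, adjusted p = 0.761). No difference in SNAI2 passed this test.

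**Figure D3:**
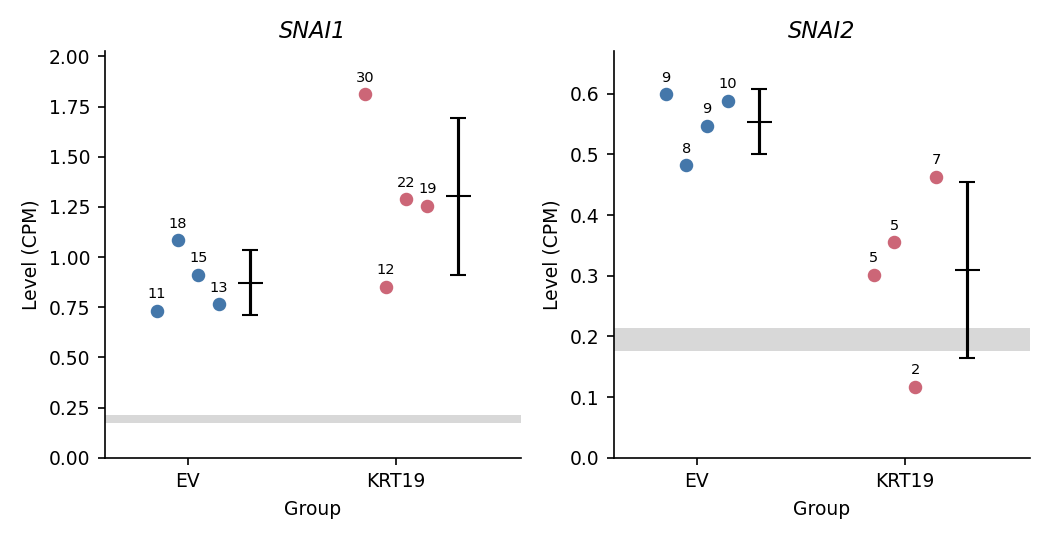
SNAI1 and SNAI2 in CPM (vertical axis from 0) for each library by group, with the read count printed above each point, the mean ± SD beside the points (n = 4) and the floor of 3 counts as a grey band. SNAI1 ranges from 0.732 to 1.81 CPM with overlapping groups, and SNAI2 from 0.117 to 0.599 CPM with all KRT19 libraries below all EV libraries.

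The epithelial regulators were at or near the floor in both groups, and none passed the filter on low counts. GRHL2 (ENSG00000083307, plus strand of chromosome 8, 101492432 to 101669726) had 0 counts in all 8 libraries, which allows up to 0.104 to 0.129 TPM per library. OVOL1 (ENSG00000172818, plus strand of chromosome 11, 65787022 to 65797219) had 1 count in KRT19 replicate 2 and 0 in the other 7 libraries. ESRP1 (ENSG00000104413, plus strand of chromosome 8, 94641074 to 94707466) had 1 count each in EV replicate 1 and KRT19 replicates 2 and 4, and 0 elsewhere. No change in these 3 genes could be measured at this depth. Of 19951 protein-coding genes, 29.1% were likewise at the floor in all libraries. ESRP2 (ENSG00000103067, minus strand of chromosome 16, 68229111 to 68238102) was the 1 epithelial member above the floor, with 4, 10, 6 and 1 counts in EV and 7, 5, 6 and 6 in KRT19 libraries. The ESRP2 groups overlapped, and EV replicate 4 was the lowest and EV replicate 2 the highest of all. Its log2 fold change was 0.24 ± 0.53 (SE) in the fit of all genes with at least 1 count, with an interval from -0.81 to 1.28 (edgeR, adjusted p = 0.923). ESRP2 overlaps NFATC3 on the opposite strand, which had 379 to 483 counts. The handling of strand was not stated, so reads of the 2 genes in the shared bases cannot be told apart.

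Of the 10 genes, 5 passed the filter and were tested, all of them repressors. None of these 5 had an adjusted p under 0.05 in edgeR, DESeq2 or limma-voom, and 0 had an unadjusted p under 0.05 in any of the 3. Over all 14621 genes tested by edgeR, 0.00684% passed the adjusted threshold, which is KRT19 alone, and 5.41% had an unadjusted p under 0.05. Of the 5 log2 fold changes, 4 were above 0 and 1 below, with a median of 0.12 against 0.0051 over all genes tested. Separation of the groups without overlap was seen for 0 of the 5, against 3.44% of all genes tested. KRT19 replicate 3, which stood apart, was the highest library for 3 of the 5, and without it each of those 3 log2 fold changes was no more than 0.080. The 95% intervals leave room for changes of up to 1.25-fold higher for ZEB1, 1.18-fold for ZEB2, 1.29-fold for TWIST1 and 2.25-fold for SNAI1, and down to 0.817-fold for TWIST2.

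**Figure D4:**
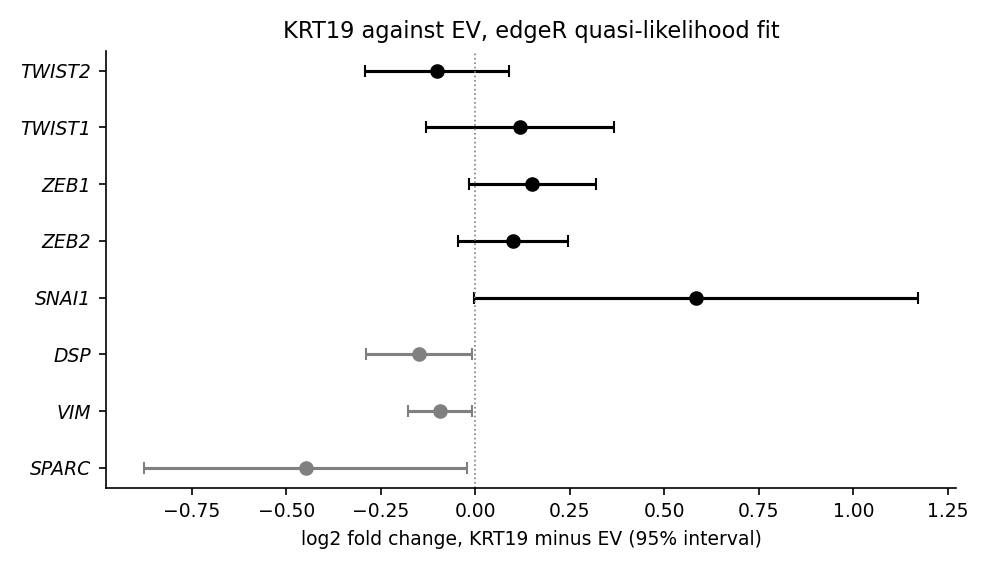
Log2 fold changes of KRT19 against EV (horizontal axis) with 95% intervals from edgeR for the 5 tested members (black) and for the 3 related genes with an unadjusted p under 0.05 (grey). All 5 member intervals include 0, from -0.0045 to 1.17 for SNAI1 down to -0.29 to 0.090 for TWIST2.

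The genes that these regulators act on or with were described next, from 7 lists of 71 genes. Of the 71, 39 were tested, 14 with a log2 fold change above 0 and 25 below, and the median was -0.025. None had an adjusted p under 0.05 in edgeR, DESeq2 or limma-voom, and 3 of the 39 had an unadjusted p under 0.05 in edgeR, each lower in KRT19 libraries, where 5.41% of all genes tested had one. Of 12 mesenchymal markers, 9 were tested, 1 above 0 and 8 below, with a median of -0.14. VIM, the intermediate filament of mesenchymal cells, was among the 3, at 2548, 2467, 2449 and 2475 CPM in EV and at 2356, 2369, 2285 and 2307 CPM in KRT19 libraries. VIM was lower in every KRT19 library, with a log2 fold change of -0.093 ± 0.041 (SE, edgeR, adjusted p = 0.906). SPARC, a matricellular protein, was at 3.13, 2.47, 2.62 and 2.71 CPM in EV and at 2.29, 1.92, 1.35 and 2.45 CPM in KRT19 libraries, a log2 fold change of -0.45 ± 0.20 (edgeR, adjusted p = 0.906). It was -0.29 without KRT19 replicate 3. The groups did not overlap for VIM, SPARC and CD44, each lower in KRT19 libraries, which is 3 of the 39 tested related genes, against 3.44% of all genes tested. Of the mesenchymal markers, VIM (median 1678 TPM), the integrin gene ITGA5 (85.7 TPM) and the fibronectin gene FN1 (14.2 TPM) had the highest CPM. Per length, CDH2 (24.1 TPM) and S100A4 (23.7 TPM) lay above FN1. The fibroblast collagen COL3A1 had at most 4 counts and the protease FAP at most 1.

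Of 15 epithelial targets of the repressors, 7 were tested, 1 above 0 and 6 below, with a median of -0.095, and 6 were at the floor in every library. EPCAM, an epithelial adhesion gene, had 1, 1, 0 and 0 counts in EV and 3, 1, 2 and 3 in KRT19 libraries, all at the floor. It did not pass the filter on low counts. Its groups did not overlap in CPM, with KRT19 higher, as for 2.45% of genes with at least 1 count in either direction. EV replicates 1 and 2 and KRT19 replicate 2 had 1 count each, so depth alone set that separation apart. The floor also held CDH1, CLDN7, RAB25, ST14 and MARVELD3, which encode junction, trafficking and protease components of epithelia. DSP, which encodes the desmosomal protein desmoplakin, was expressed, at 54.1, 54.4, 51.3 and 56.3 CPM in EV and at 48.5, 55.2, 44.4 and 47.1 CPM in KRT19 libraries. KRT19 replicate 2 lay within the EV range and the other 3 below it, with a log2 fold change of -0.15 ± 0.067 (SE, edgeR, adjusted p = 0.906). The desmosomal PKP3 (median 28.6 TPM) and the tight junction gene OCLN (12.9 TPM) were expressed as well, so the junction genes did not share 1 level.

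The remaining lists held 0 genes with an unadjusted p under 0.05 in edgeR. Of 10 other EMT transcription factors, 6 were tested, 3 above 0 and 3 below. The E-protein genes led that list, with medians of 119 TPM for TCF3, 44.8 for TCF12 and 3.17 for TCF4, whose products pair with TWIST proteins. Of 12 other epithelial transcription factors, 4 were tested, 2 above 0 and 2 below. KLF4 (31.1 TPM), KLF5 (14.5 TPM) and FOXA1 (3.58 TPM) had the highest CPM there, and GRHL1, a paralog of GRHL2, had 38 to 73 counts where GRHL2 had 0. OVOL2, a paralog of OVOL1, had 1 to 6 counts. All 7 corepressors of ZEB and SNAI proteins were tested, 4 above 0 and 3 below, and by CPM the highest were HDAC1 (237 TPM), HDAC2 (40.4 TPM) and the demethylase gene KDM1A (102 TPM). Of 7 genes spliced by ESRP proteins, 6 were tested, 3 above 0 and 3 below, led in CPM by CD44 (199 TPM), SCRIB (134 TPM) and CTNND1 (86.3 TPM). Gene counts do not show which of their isoforms was present.

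**Figure D5:**
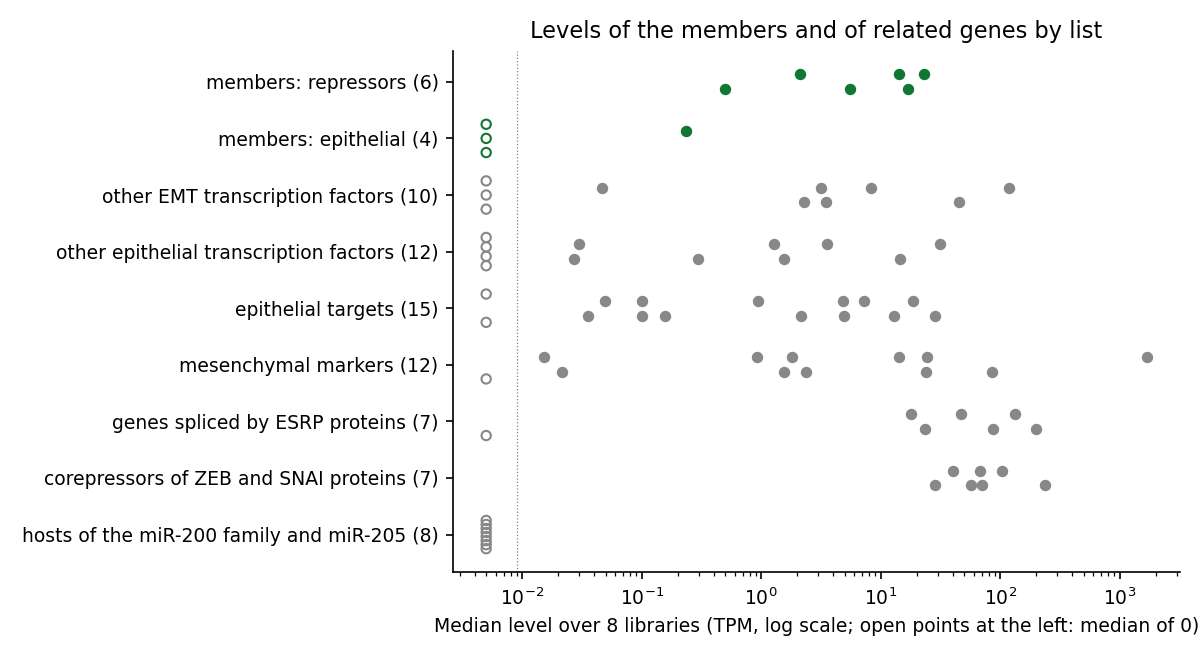
Median TPM over 8 libraries (horizontal axis, log scale) of the 10 members (green) and of the 71 related genes (grey) by list, with the number of genes in brackets and genes with a median of 0 as open points at the left. The repressors lie between 0.497 and 23.0 TPM, 3 of the 4 epithelial members and all 8 microRNA loci have a median of 0, and corepressors lie above 28 TPM.

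E-boxes of the kind that ZEB and SNAI proteins bind were counted in RefSeq promoters (GRCh38.p14), from 250 bases before to 50 after each start. The motif was CACCTG on either strand, that is CACCTG or CAGGTG, which do not overlap each other. At least 1 was present in 20.6% of 35116 promoters and for 24.1% of 27305 genes. Of the 8 epithelial targets that matched the table, 7 had at least 1. That list was drawn up from known targets of these repressors, so the count is no independent observation. The 7 differed in level, since RAB25 had 0 counts and DSP, with 2 motifs, was at 18.7 TPM. CRB3, which encodes a polarity protein of the apical membrane, had 2 to 9 counts and 5 motifs, and 0.0940% of all promoters held at least 5. A promoter of CLDN7, a gene at the floor, also held 5, and another CLDN7 promoter held 0. The 250 bases before the CRB3 start are shown as an example of this density, plus strand, 5′ to 3′, with the motifs in capitals. They begin at -228, -208, -147, -89 and -60, where -1 is the base before the start.
CRB3, chr19:6464021-6464270: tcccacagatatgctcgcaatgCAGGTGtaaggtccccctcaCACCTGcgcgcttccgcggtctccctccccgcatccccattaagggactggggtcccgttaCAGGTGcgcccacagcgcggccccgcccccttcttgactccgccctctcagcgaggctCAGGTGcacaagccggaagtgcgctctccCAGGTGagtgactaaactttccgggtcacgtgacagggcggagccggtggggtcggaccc

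Of the members, ZEB1, ZEB2 and TWIST2 matched the promoter table. ZEB1 had 7 starts, of which 2 held the motif, with 1 and 3 copies, and the promoters of ZEB2 and TWIST2 held none. A match describes the letters in the window and no binding was measured.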

How the data were processed

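RNA-seq of 4 EV and 4 KRT19 libraries was analysed. The authors deposited raw read counts per gene, without normalization, on GRCh38. The submitters' processing notes name Bowtie 0.12.2, featureCounts 1.5.0-p3, DESeq2 and hg38. The provider cleaned the reads. The handling of strand and of reads with several matches is not given in the sources used here, so overlapping and paralogous genes carry uncertain counts.

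Groups and replicate numbers came from the sample titles. Counts were fitted in R 4.3.3 with edgeR 4.0.16 (filterByExpr, TMM, glmQLFit and glmQLFTest, two-sided, Benjamini-Hochberg over 14621 genes, threshold 0.05), with all 8 libraries in 1 model. CPM used TMM-scaled library sizes. TPM used the table's gene length, equal to the union of GENCODE 29 exons for all 58735 genes. Alternatives were DESeq2 1.42.0 (size factors and Wald test), upper-quartile scaling, limma 3.58.1 voom with sample weights, looser filtering (1 count or more in total), stricter filtering (5 CPM or more in 4 libraries), the replicate number as a block, and leaving out each library. The use of the exons of GENCODE basic protein-coding transcripts as length was added after the data were seen. The fitting procedure was tested on simulated data. Total counts of 14073065 to 17054364 per library set the precision, and the floor was 3 counts.

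The members and lists were chosen with earlier results of these data known. Genes were named by rule: the members, KRT19, rows that overlap a member or are named as its antisense RNA or pseudogene, list genes with an unadjusted p under 0.05, the 3 of each list with the highest mean CPM, and the 3 protein-coding genes most alike to the highest repressor and the highest epithelial member. Genes named to describe a list at the floor, to compare levels per length, as paralogs or as cell type markers were chosen after their values were seen or as markers. Within a group, pairs of libraries differed by more than sampling noise (chi-square per degree of freedom 2.67 to 12.4), so none was counted as a duplicate. Of the cell line markers, 1 is not reported here.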

Additional observations from a re-analysis of the deposited data

Results flagged for a closer look

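Of 26 groups of 4 libraries, 2 held a library that lay far from the other 3 by Dixon's 95% criterion. Chance gives about 1 in 20 groups, or 1.3 here. The TWIST1/TWIST2 ratio per length was lowest in KRT19 replicate 2, at -0.52 on the log2 scale, against -0.16 to -0.14 in the other 3 KRT19 libraries. The KRT19 transcript had its lowest level of the KRT19 group in replicate 3, with 288 CPM against 310 to 311 CPM.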

How the results depend on the processing

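Each tested member kept the direction of its log2 fold change under every alternative it was fitted in (15 each, 14 for SNAI1, which the stricter filter removed), and 0 members and 0 related genes passed the adjusted threshold in any of them. Over these alternatives the log2 fold change ranged from 0.068 to 0.20 for ZEB1, 0.044 to 0.14 for ZEB2, 0.38 to 0.73 for SNAI1, 0.039 to 0.21 for TWIST1 and -0.16 to -0.055 for TWIST2. Adjusted p ranged from 0.560 to 1.00 for ZEB1 and from 0.567 to 1.00 for SNAI1. Members with an unadjusted p under 0.05 numbered 1 under the looser filter (ZEB1) and 0 to 1 when libraries were left out. Members whose groups do not overlap numbered 2 with upper-quartile normalization (SNAI2 and TWIST2) and 1 to 2 when libraries were left out. Genes past the adjusted threshold numbered 5 with the DESeq2 Wald test, 8 with limma-voom, 71 under the looser filter and 1 to 5 when libraries were left out. Genes at an unadjusted p under 0.05 numbered 1337 with limma-voom, 1559 under the looser filter and 620 to 1228 when libraries were left out. Related genes at an unadjusted p under 0.05 numbered 5 with upper-quartile normalization, 5 with limma-voom and 0 to 5 when libraries were left out. With basic protein-coding exons as length, the median was 7.37 TPM for ZEB2 and 16.5 TPM for TWIST2. The causes of these moves were not tested.

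Replicate numbers did not pair the libraries, since deviations of same-numbered libraries correlated at -0.16 to 0.057. With the replicate block, 451 genes and 1 related gene (SPARC) had an unadjusted p under 0.05, and the log2 fold changes were 0.15 for ZEB1, 0.56 for SNAI1 and -0.10 for TWIST2. Depth limits SNAI2 and the epithelial members most, at 0 to 10 counts per library.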

Other observations

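Several genes in the table overlap the members or are pseudogene copies of them. ZEB1-AS1, the antisense RNA of ZEB1, had 41 to 85 counts, with a mean of 4.49 ± 0.711 CPM (SD, n = 4) in EV, 3.96 ± 0.697 CPM (SD, n = 4) with KRT19, and a log2 fold change of -0.17 ± 0.16 (SE, edgeR, adjusted p = 0.927). ZEB2-AS1 and OVOL1-AS1 had at most 1 count, and the pseudogenes ZEB2P1 and SNAI1P1, which lie on other chromosomes than ZEB2 and SNAI1, had at most 2 and 0. NFATC3, which overlaps ESRP2, averaged 25.7 ± 2.05 CPM (SD, n = 4) in EV and 25.2 ± 2.15 CPM (SD, n = 4) with KRT19.

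Among 12420 tested protein-coding genes, those whose log2 CPM was most alike to TWIST2 across the 8 libraries were GFPT1 (Pearson's r = 0.967), PPFIBP1 (0.931) and M1AP (0.927). These values are a description over 8 libraries that share their preparation and depth, picked as the highest of many. ESRP2 was not tested, so no such genes were sought for it.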
